A study of Homo sapiens with 6 samples.

Results

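The 9 genes described here encode receptors of type I and type II interferon and the proteins that carry their signal to the nucleus. They are the receptor genes IFNAR1, IFNAR2, IFNGR1 and IFNGR2, the kinase genes JAK1 and TYK2, and the transcription factor genes STAT2, IRF9 and IRF1. The members were chosen by symbol for their role in the pathway, not by a measured value, and all 9 were found among the 60605 genes of the count table by their Ensembl identifiers. Of the 9, 8 had enough counts to be tested, among 14479 genes tested in all, and IFNAR2 did not. The study sequenced RNA of UMUC3, a human bladder cancer line, in 6 libraries. In the TIM-1 group 3 libraries came from cells infected with TIM-1-PLVX-IRES-zsgreen, and in the empty-vector group 3 came from cells infected with PLVX-IRES-Zsgreen. Both vectors thus name the fluorescent marker ZsGreen, and the labels give neither the time after infection nor whether infected cells were selected. TIM-1, encoded by HAVCR1, is a cell surface receptor for phosphatidylserine. The study's title names TIM-1 and the interferon-induced gene IFIT2, and the comparison asks whether transcripts of the pathway upstream of such genes differ when TIM-1 is expressed.

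Type I interferons bind a receptor made of IFNAR1 and IFNAR2, on which TYK2 and JAK1 are held. The kinases phosphorylate STAT proteins, among them STAT2, which joins IRF9 in ISGF3, the complex that binds interferon-stimulated response elements. Type II interferon binds IFNGR1 and IFNGR2, with JAK1 and JAK2 attached, and leads to the binding of STAT dimers at gamma-activated sites, among them one in the promoter of IRF1. IRF1 is itself a transcription factor that activates genes of antigen presentation and antiviral defence.

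Total counts ran from 14312387 to 18605914 per library. Values of single libraries are given in the order of replicates 1, 2 and 3. HAVCR1 had 7069, 9824 and 11479 counts in TIM-1 libraries, against 4, 0 and 0 in empty-vector libraries. Of 12 markers of urothelium and of this line 11 had a count, with EPCAM at 0, and the most abundant were VIM and KRT18. The urothelial cell markers GATA3, UPK2, UPK1B, KRT5 and CDH1 were at or under 1.4 CPM (counts scaled to a common library size) on average. Of the 12 markers 5 were tested. When the libraries were paired by number KRT18 and GATA3 were called lower with TIM-1 and PPARG higher. Of all tested genes 1.79% were called lower and 3.22% higher in that fit. Without the pairing 0 of the 5 were called. The part of these marker calls in the results was not tested. The summed marker level was 1744 to 2213 CPM in TIM-1 libraries and 1957 to 2687 CPM in empty-vector libraries. Leukocyte markers summed to at most 0.345 CPM in TIM-1 libraries and 0.251 CPM in empty-vector libraries, with PTPRC, CD3E and LYZ among those at 0. Endothelial markers summed to at most 0.270 and 0.0603 CPM in the TIM-1 and the empty-vector libraries, with CDH5 and KDR at 0, and of the red cell markers HBB was at 0. The labels number the libraries 1 to 3 in both groups, and replicate 1 stood apart in both. Nothing in them tells whether the replicates are separate cultures, so the p-values speak to the spread among these libraries and no further, and that spread may be technical.

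The promoters of IRF1 and IRF9 are shown because they hold the letters of a gamma-activated site, an element that STAT dimers bind. RefSeq promoter windows (GRCh38.p14, the same assembly as hg38) were found for 8 of the 9 genes, in 12 windows of 250 bases before an annotated start. The letters TTCNNNGAA of the gamma-activated site, which read the same on both strands, were found in the windows of IRF1 and IRF9. Over all 35116 RefSeq windows, 6.57% held them. The letters of the interferon-stimulated response element, GAAA followed by any 2 bases and a second GAAA, searched on both strands, were in none of the 12 windows, against 3.02% of all windows. A match is a description of the letters only. Below, capitals mark the gamma-activated site, which lies 124 to 116 bases before the start of IRF1 and 63 to 55 bases before that of IRF9. The first stretch is the minus strand of chr5:132490774-132491023 and the second the plus strand of chr14:24161192-24161220.
IRF1: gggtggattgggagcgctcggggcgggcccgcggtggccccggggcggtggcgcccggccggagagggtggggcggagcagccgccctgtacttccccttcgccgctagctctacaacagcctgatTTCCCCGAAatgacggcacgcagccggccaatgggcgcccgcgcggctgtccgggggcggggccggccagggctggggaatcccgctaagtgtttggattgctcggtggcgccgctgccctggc
IRF9: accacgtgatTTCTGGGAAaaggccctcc

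Of the 9 genes, 7 had more than 100 counts in every library, 1 differed between the groups in the paired test, and 2 were called lower in replicate 1 than in the other replicates. IFNAR1 was lower in the TIM-1 library of each of the 3 pairs of same-numbered libraries, and it passed the test once libraries were paired by number, 1 of 8 tested members against 1.79% of all tested genes called lower. IFNAR1 and IRF1 were the 2 called lower in replicate 1, against 12% of all tested genes, and IRF1 did not pass the test for TIM-1. JAK1, TYK2, IFNGR1, IFNGR2 and STAT2 differed by small amounts that did not pass in either fit. The counts of IFNAR2 and IRF9 were low, and most bases of their coding transcripts are shared with other annotated genes.

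Per kilobase of exon, JAK1 was the most abundant of the 9. Levels between genes are given in TPM, the transcript share of a library, computed from the counts and the length of all annotated exons. JAK1, the kinase common to both receptors, ran from 106 to 131 TPM over the 6 libraries, above all others. IFNGR2, IFNAR1 and IFNGR1 came next at 40.4 to 47.7, 34.0 to 49.8 and 37.9 to 45.9 TPM, and their ranges overlap, so their order is not resolved. TYK2 ran from 29.8 to 34.4 TPM, below both IFNGR genes and overlapping IFNAR1 at its lower end. STAT2 stood at 11.5 to 14.4 TPM and IRF1 at 3.44 to 14.4 TPM, the widest spread in relative terms among those with more than 100 counts in each library. IRF9 at 0.687 to 1.34 TPM and IFNAR2 at 0.0473 to 0.389 TPM were at the bottom.

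**Figure D1:**
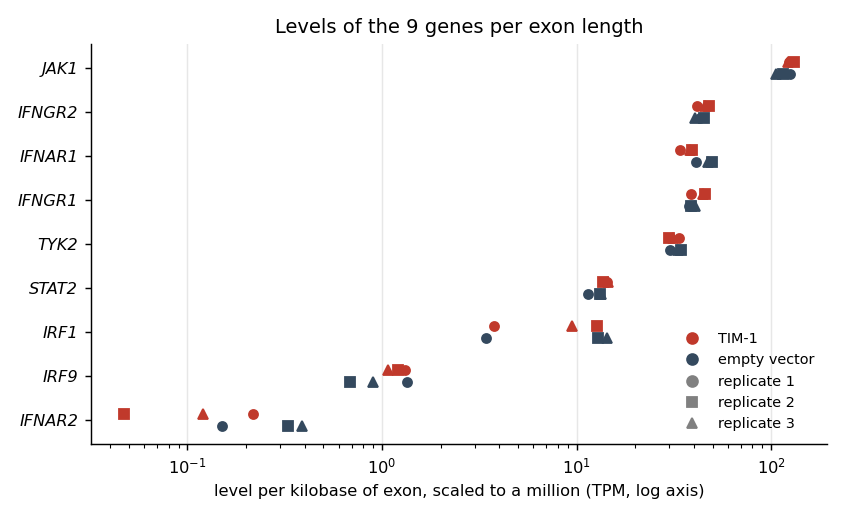
Level of each of the 9 genes in TPM (horizontal log axis) in each library, with TIM-1 libraries in red above empty-vector libraries in dark blue and symbols for the replicate number. JAK1 lies above 100 TPM in all 6 libraries, IRF1 is lowest in replicate 1 of both groups, and IFNAR2 stays below 0.4 TPM.

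The low counts of IFNAR2 and IRF9 cannot be read as low levels of their messenger RNA. IFNAR2, the signalling chain of the type I receptor (ENSG00000159110, chromosome 21, 33229901 to 33265675, plus strand), had 4, 1 and 3 counts in TIM-1 libraries, against 3, 7 and 9 in empty-vector libraries. A library's count of 0 would allow up to 0.162 to 0.207 CPM, so several of these values lie near the limit of detection, and the groups overlap. Pooled over 3 libraries each, there were 8 counts with TIM-1 and 19 with the empty vector, a ratio of 0.417 with an exact 95% interval of 0.158 to 0.998 that covers counting error only. In the GENCODE 29 annotation 44.2% of the exon bases of IFNAR2 also belong to the same-strand gene IFNAR2-IL10RB, and 39.1% lie opposite IL10RB-DT, which together leave 773 of 4614 bases unshared. In its 5 coding transcripts of the basic set the unshared share ran from 0% to 14.1%. IFNAR2-IL10RB had 0 counts in total and IL10RB-DT 2. No source used here gives the rule for reads that overlap more than 1 gene, and whether such reads were left out was not tested.

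IRF9, the DNA-binding partner of STAT2 in ISGF3, has the same limit. It lies on chromosome 14 from 24161053 to 24166565, and at most 9.13% of the bases of its 2 basic coding transcripts are free of the same-strand gene ENSG00000259529, which had 79 counts in total. IRF9 (ENSG00000213928) had 20, 21 and 22 counts in TIM-1 libraries, against 22, 12 and 17 in empty-vector libraries. TIM-1 libraries averaged 1.29 ± 0.0967 CPM and empty-vector libraries 1.05 ± 0.319 CPM (SD, n = 3 each), and the groups overlap. The log2 fold change was 0.29 (95% interval -0.49 to 1.08, edgeR adjusted p = 0.937), an interval that holds differences in either direction. The other 7 genes have at least 78% of all their exon bases unshared with any gene on either strand. By basic coding transcript the unshared share of IRF1 was lower, from 44.3% to 83.8% on either strand and 100% on the same strand.

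IFNAR1, the chain of the type I interferon receptor that holds TYK2, fell with TIM-1 in the paired test and did not pass in the unpaired one. The gene (ENSG00000142166, chromosome 21, 33324477 to 33359862, plus strand) shares none of its 6301 exon bases with another gene. It had 855, 1136 and 1306 counts in TIM-1 libraries, against 1121, 1445 and 1495 in empty-vector libraries. Scaled for depth these were 59.0, 70.3 and 70.5 CPM in TIM-1 libraries, against 70.2, 89.4 and 90.2 CPM in empty-vector libraries. The groups overlap by a small margin, because empty-vector replicate 1 lay just below TIM-1 replicates 2 and 3. Within each group replicate 1 was the lowest library.

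For IFNAR1 the TIM-1 libraries averaged 66.6 ± 6.58 CPM and the empty-vector libraries 83.3 ± 11.3 CPM (SD, n = 3 each). In bulk RNA, fewer cells with the transcript and less of it per cell cannot be told apart. Within the pairs of replicates 1, 2 and 3 the log2 differences were -0.25, -0.35 and -0.36, TIM-1 minus empty vector. In the unpaired edgeR quasi-likelihood test the log2 fold change was -0.32 (SE 0.121, 95% interval -0.59 to -0.05, unadjusted p = 0.0243), which did not pass adjustment over all genes (adjusted p = 0.822). A block for the replicate number left the log2 fold change at -0.32 (SE 0.0713, 95% interval -0.46 to -0.18), which passed (edgeR adjusted p = 0.00306). DESeq2 with the block gave an adjusted p of 0.0344, and a block that only set replicate 1 apart gave 0.00991. Omitting the replicate 2 pair ended the call (edgeR adjusted p = 0.165), with a log2 fold change of -0.31. Replicate 1 was also low in itself: against the other replicates IFNAR1 was lower there by 0.31 on the log2 scale, with the group as a term (edgeR adjusted p = 0.00435, with 12% of all tested genes called lower there), and the part of this in the TIM-1 difference was not tested beyond the blocked fits.

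**Figure D2:**
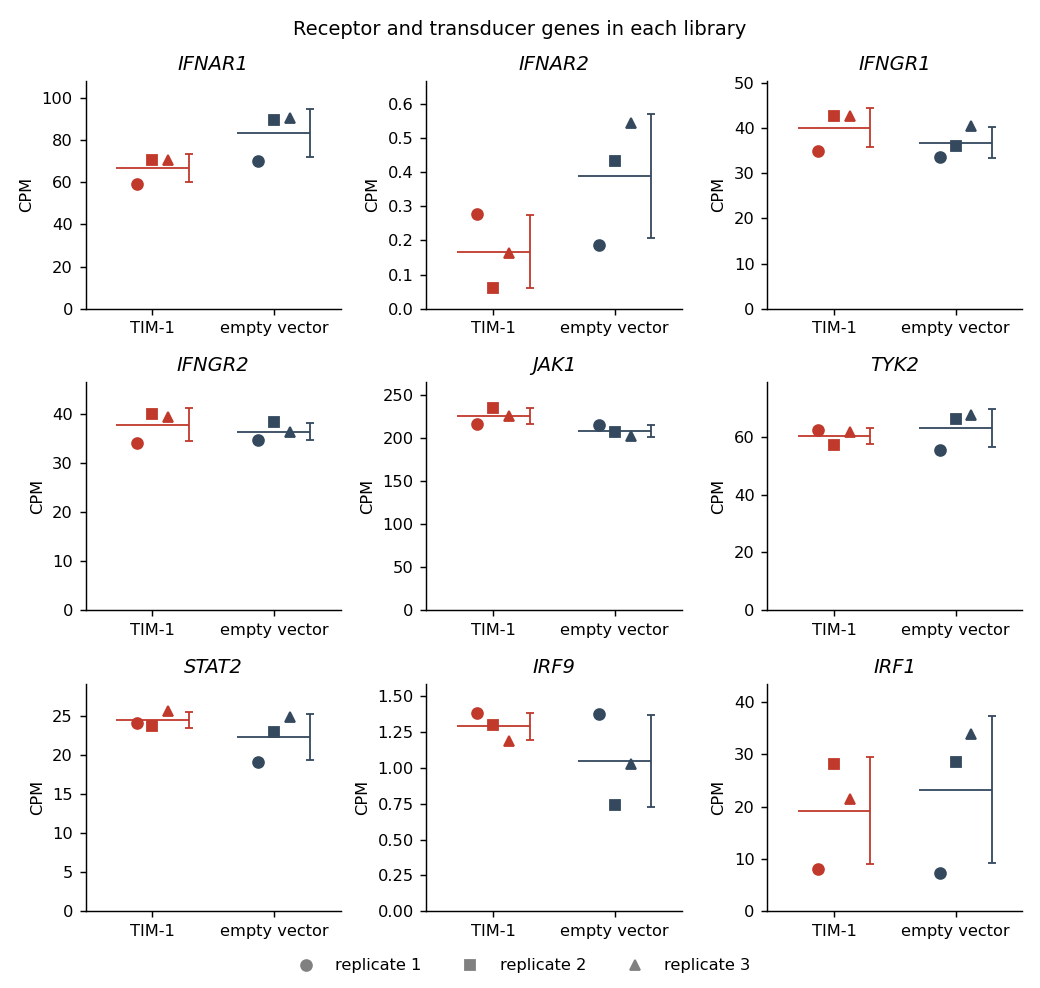
Depth-scaled counts (CPM, vertical axis from 0, a separate scale for each gene) of the 9 genes in TIM-1 libraries (red, left) and empty-vector libraries (dark blue, right), with symbols for the replicate number, lines for the mean and bars for 1 SD (n = 3). For IFNAR1 the TIM-1 symbol lies below the empty-vector symbol of the same shape in each of the 3 pairs, and for IRF1 the replicate 1 circles lie at 8.07 (TIM-1) and 7.27 CPM (empty vector) while the other 4 libraries lie above 20 CPM.

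IFNAR1 sits in a cluster of interferon receptor genes on chromosome 21, and 0 of its tested neighbours passed in either fit. Within 500 kb of the gene, 8 other protein-coding genes were tested, a window chosen after the values were seen. With the block 0 of the 8 passed, against 3.22% of all tested genes called higher and 1.79% lower. Their log2 fold changes ran from -0.10 for GART to 0.31 for CRYZL1. In all 3 pairs 2 were lower and 2 higher, against 19.1% and 20.1% of all tested genes. With 8 genes these counts lie near the shares of all tested genes. IFNGR2, the receptor gene next to IFNAR1 among those tested, averaged 37.8 ± 3.29 CPM in TIM-1 libraries and 36.3 ± 1.79 CPM in empty-vector libraries (SD, n = 3 each).

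The 2 chains of the type II interferon receptor did not pass the test. IFNGR1, the ligand-binding chain (ENSG00000027697, chromosome 6, 137197484 to 137219449, minus strand), had 507, 688 and 788 counts in TIM-1 libraries, against 537, 583 and 669 in empty-vector libraries. The TIM-1 library was the higher in each pair, but the groups overlap, and the log2 fold change was 0.13 (95% interval -0.14 to 0.39, edgeR adjusted p = 0.921). IFNGR2, the accessory chain that holds JAK2 (ENSG00000159128, chromosome 21, 33402896 to 33479348, plus strand), had 493, 646 and 730 counts in TIM-1 libraries, against 553, 618 and 600 in empty-vector libraries. Its log2 fold change was 0.06 (95% interval -0.18 to 0.30, edgeR adjusted p = 0.960), and 12.8% of its exon bases lie opposite TMEM50B. With the block the adjusted p was 0.474 for IFNGR1 and 0.799 for IFNGR2. In neither gene did the unpaired interval reach -0.32, the log2 fold change of IFNAR1. The unpaired interval of IFNAR1 itself, -0.59 to -0.05, overlaps both, and a difference between the genes was not tested.

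JAK1, which phosphorylates STAT proteins at both receptors, had the highest counts of the 9. The gene (ENSG00000162434, chromosome 1, 64833229 to 64966504, minus strand) had 3138, 3790 and 4166 counts in TIM-1 libraries, against 3438, 3347 and 3345 in empty-vector libraries. In CPM these were 217, 235 and 225 in TIM-1 libraries, against 215, 207 and 202 in empty-vector libraries. The groups did not overlap on this scale, by a margin of about 1 CPM between the replicate 1 libraries, and on the TPM scale they did overlap. Of the 8 tested members JAK1 was the only one whose groups did not overlap on the CPM scale, against 6.6% of all tested genes with TIM-1 above and 5.06% with TIM-1 below. The log2 fold change was 0.11 (SE 0.0771, 95% interval -0.06 to 0.29, edgeR adjusted p = 0.914), and it did not pass with the block (edgeR adjusted p = 0.320).

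TYK2, the kinase attached to IFNAR1, did not pass the test in either fit. The gene (ENSG00000105397, chromosome 19, 10350529 to 10380676, minus strand) had 906, 924 and 1144 counts in TIM-1 libraries, against 889, 1072 and 1126 in empty-vector libraries. It was higher with TIM-1 in the replicate 1 pair and lower in the other 2 pairs, with log2 differences of 0.17, -0.21 and -0.14. The log2 fold change was -0.07 (95% interval -0.30 to 0.16, edgeR adjusted p = 0.950). Its direction flipped in the blocked fit without the replicate 2 pair, to 0.010.

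STAT2, which joins IRF9 in ISGF3, did not pass the test in either fit. The gene (ENSG00000170581, chromosome 12, 56341597 to 56360155, minus strand) had 349, 383 and 475 counts in TIM-1 libraries, against 304, 370 and 411 in empty-vector libraries. The TIM-1 libraries averaged 24.5 ± 1.03 CPM and the empty-vector libraries 22.2 ± 2.93 CPM (SD, n = 3 each). The TIM-1 library was the higher in each of the 3 pairs, by 0.34 on the log2 scale in replicate 1 and by 0.05 in replicates 2 and 3, and the groups overlap. The log2 fold change was 0.14 (95% interval -0.15 to 0.43, edgeR adjusted p = 0.921).

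IRF1 varied more than 4-fold between libraries, and its lowest values were those of replicate 1 in both groups. The gene (ENSG00000125347, chromosome 5, 132481609 to 132490798, minus strand) had 117, 455 and 398 counts in TIM-1 libraries, against 116, 461 and 563 in empty-vector libraries. In CPM these were 8.07, 28.2 and 21.5 in TIM-1 libraries, against 7.27, 28.5 and 34.0 in empty-vector libraries. The replicate 1 libraries of the 2 groups were alike and far below the other 4, and the groups overlap. With the group as a term, IRF1 was lower in replicate 1 than in the other replicates by 1.86 on the log2 scale (SE 0.152, edgeR adjusted p = 5.19e-09). Replicate 1 was singled out with earlier results of these data known, and 11.6% of all tested genes were called higher there, beside the 12% called lower.

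For TIM-1 against the empty vector, IRF1 had a log2 fold change of -0.27 (95% interval -2.06 to 1.52, edgeR adjusted p = 0.975), an interval too wide to bear on a difference. With the block it was -0.23 (95% interval -0.48 to 0.01, edgeR adjusted p = 0.307). The pairs of replicates 1, 2 and 3 differed by 0.15, -0.02 and -0.66, so the replicate 3 pair had the lowest difference by far. In unpaired fits the log2 fold change changed sign without empty-vector replicate 3 (0.11) and without TIM-1 replicate 1 (0.09). The second of these fits leaves replicate 1 in the empty-vector group only. IRF1-AS1, an antisense gene with 175 counts in total, lies opposite 22% of the exon bases of IRF1, and reads of the 2 strands could not be told apart if strand was not used in counting.

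**Figure D3:**
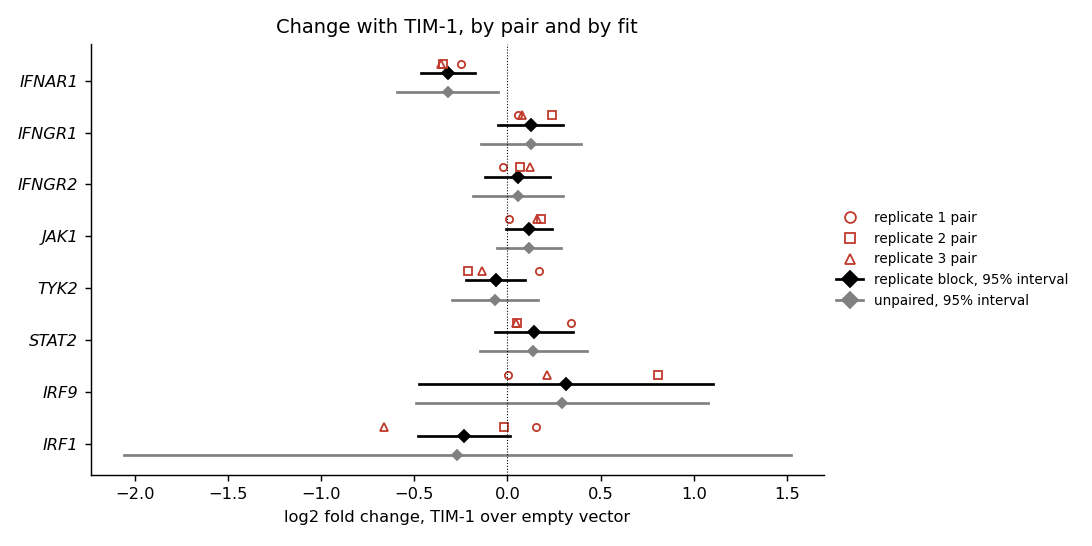
Log2 fold change, TIM-1 over empty vector (horizontal axis), of the 8 tested genes, as the 3 pairs of same-numbered libraries (open red symbols), the fit with the replicate block (black diamonds) and the unpaired fit (grey diamonds), with lines for the 95% intervals. The blocked interval of IFNAR1 runs from -0.46 to -0.18, the unpaired interval of IRF1 from -2.06 to 1.52, and the blocked intervals of the other 7 genes include 0.

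Counted together, 0 of the 8 tested members passed the unpaired edgeR test in either direction, against 0.0138% of all tested genes higher and 0% lower. At an unadjusted p under 0.05 the count was 1, IFNAR1, against 3.95% of all tested genes higher and 1.54% lower, and unpaired DESeq2 called 0. With the replicate block 0 members were higher and 1, IFNAR1, was lower, against 3.22% and 1.79% of all tested genes. IFNGR1, JAK1, STAT2 and IRF9 were higher with TIM-1 in all 3 pairs and IFNAR1 was lower in all 3, against 20.1% and 19.1% of all tested genes. In the replicate 1 pair the difference was only 0.0018 for IRF9 and 0.0076 for JAK1 on the log2 scale. The median log2 fold change of the 8 was 0.09 with the block, and that of all tested genes was 0.00. For replicate 1 against replicates 2 and 3, IFNAR1 and IRF1 were called lower and 0 members higher, and JAK1 had a difference of -0.00 (edgeR adjusted p = 0.973).

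**Figure D4:**
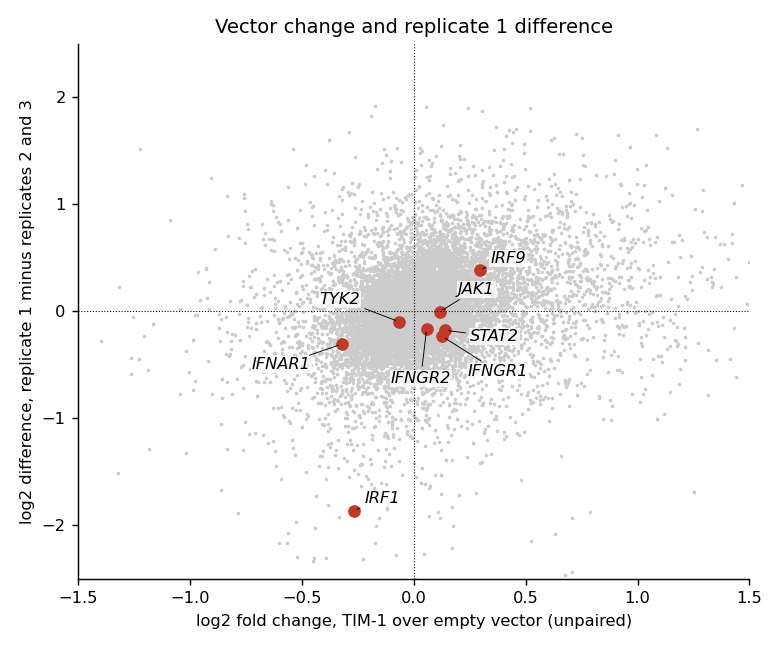
Log2 fold change of TIM-1 over empty vector in the unpaired fit (horizontal axis) against the log2 difference of replicate 1 minus replicates 2 and 3 (vertical axis) for the 8 tested genes (red, labelled) and all tested genes (grey, axes limited so that a few lie outside). IRF1 lies at -1.86 on the vertical axis, IFNAR1 at -0.32 on the horizontal axis and -0.31 on the vertical axis, and the other 6 lie within 0.4 of 0 on both axes.

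Ratios of 2 members within a library do not depend on the scaling between libraries, and 4 of them were compared. For 3 libraries against 3 the exact two-sided permutation test cannot give a p below 0.1, so none could pass the threshold. The log2 ratio of JAK1 to TYK2 counts averaged 1.90 ± 0.125 with TIM-1 and 1.72 ± 0.202 with the empty vector (SD, n = 3 each; exact permutation p = 0.3, adjusted p = 0.533 over the 4). That of IFNGR1 to IFNGR2 averaged 0.0805 ± 0.0361 with TIM-1 and 0.0102 ± 0.129 with the empty vector (SD, n = 3 each; exact permutation p = 0.4, adjusted p = 0.533). For IFNAR1 to IFNAR2 it was 8.56 ± 0.997 with TIM-1 and 7.74 ± 0.528 with the empty vector (SD, n = 3 each; exact permutation p = 0.3, adjusted p = 0.533), and it rests on 1 to 9 counts of IFNAR2. For IRF9 to STAT2 it was -4.22 ± 0.163 with TIM-1 and -4.40 ± 0.581 with the empty vector (SD, n = 3 each; exact permutation p = 0.6, adjusted p = 0.6). All 4 differences were smaller than 1 SD of at least 1 group.

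Calls among other receptors and transducers of the pathway were few, as they were among all tested genes. Of 16 other receptors that signal through JAK kinases 11 were tested, and 1 rose with the block and 0 fell, against 3.22% and 1.79% of all tested genes. IL13RA1, a receptor chain for interleukin 13, had 431, 379 and 413 counts in TIM-1 libraries, against 310, 234 and 241 in empty-vector libraries, with no overlap on the CPM scale (log2 fold change with the block 0.64, edgeR adjusted p = 5.37e-05, and 0.593 unpaired). It stayed called without each pair in turn. IFNLR1, the type III interferon receptor chain, had 1 count with TIM-1 and 0 with the empty vector. IL10RB, which completes that receptor and shares exons with IFNAR2-IL10RB, averaged 0.519 CPM with 11.8% of its coding transcript unshared, so its level has the limit given for IFNAR2.

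Of 8 other JAK and STAT genes 5 were tested and 0 passed in either fit. With the block 3.22% of all tested genes were called higher and 1.79% lower, so 0 of 5 is near those shares. None was at an unadjusted p under 0.05 without the block, and unpaired DESeq2 called 0. STAT3, activated by cytokines of the interleukin 6 family, averaged 175 ± 9.34 CPM in TIM-1 libraries and 168 ± 11.5 CPM in empty-vector libraries (SD, n = 3 each). STAT6, activated by interleukins 4 and 13, averaged 162 ± 13.2 CPM in TIM-1 libraries and 163 ± 17.4 CPM in empty-vector libraries (SD, n = 3 each). JAK2, the second kinase of the type II receptor and named after its values were seen, averaged 24.0 ± 2.12 CPM in TIM-1 libraries and 24.4 ± 4.83 CPM in empty-vector libraries (SD, n = 3 each). Of 7 other IRF genes 4 were tested and 0 passed in either fit, at an unadjusted p under 0.05 without the block or with unpaired DESeq2. For the block, 0 of 4 is likewise near the 3.22% and 1.79% of all tested genes. IRF3 had a log2 fold change of 0.12 and IRF2, which competes with IRF1 for its sites, one of 0.014, both unpaired.

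Of 18 negative regulators 16 were tested and 0 passed in either fit, at an unadjusted p under 0.05 without the block or with unpaired DESeq2. With the block 3.22% of all tested genes were called higher and 1.79% lower, so 0 of 16 is near those shares. PTPN11 and PTPN1, the most abundant of them, encode phosphatases that act on this pathway and had unpaired log2 fold changes of -0.07 and -0.03. In replicate 1 against the other replicates 3 of the 16 were called lower and 2 higher, against 12% and 11.6% of all tested genes. The 5 were named after their values were seen. SOCS1 and USP18, inhibitors that interferon itself induces, and the phosphatase gene PTPN2 were lower there by 1.70, 0.59 and 0.56 on the log2 scale (edgeR adjusted p = 0.0262, 0.0108 and 1.21e-05). PIAS1 and SOCS7 were higher there by 0.31 and 0.26 (edgeR adjusted p = 0.00848 and 0.034). SOCS1 had 2 to 32 counts per library.

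Interferon genes themselves were almost without counts. Of 10 ligand genes of types I, II and III 9 had 0 counts in all 6 libraries and 0 were tested. The count of 0 of IFNB1 or IFNG allows up to 0.162 to 0.207 CPM in a library. IFNL2 had 0 counts with TIM-1 and 1 with the empty vector.

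Of the genes that ISGF3 is known to induce, some rose with TIM-1 in the paired test, while STAT2 and IRF9 did not pass. Of 34 listed targets 24 were tested, and with the block 8 rose and 0 fell, against 3.22% and 1.79% of all tested genes, with a median log2 fold change of 0.41. DESeq2 with the block called 3 of the 24, LGALS3BP, IFITM3 and SAMD9 (adjusted p = 0.0199, 0.00862 and 0.0409). On the CPM scale 10 of the 24 had TIM-1 libraries all above the empty-vector libraries and 0 all below, against 6.6% and 5.06% of all tested genes. Without the block 0 passed, 8 were higher and 0 lower at an unadjusted p under 0.05, against 3.95% and 1.54% of all tested genes, and unpaired DESeq2 called 1, LGALS3BP. LGALS3BP, a secreted glycoprotein, had log2 fold changes of 0.84 with the block (edgeR adjusted p = 0.000117) and 0.84 without it (edgeR adjusted p = 0.379). IFITM3, an antiviral membrane protein gene, rose by 0.37 with the block (edgeR adjusted p = 0.000391), a call that ended when the replicate 2 pair was omitted (edgeR adjusted p = 0.0602). SAMD9, an antiviral factor gene, rose by 1.34 (edgeR adjusted p = 0.000479). IFIT2, the gene of the title, had 81, 70 and 76 counts in TIM-1 libraries, against 59, 29 and 22 in empty-vector libraries. It rose by 1.10 with the block (edgeR adjusted p = 0.00272) and lost the call without the replicate 2 pair (edgeR adjusted p = 0.0572) and with DESeq2 and the block (adjusted p = 0.117). SAMD9 and IFIT2 were higher in replicate 1 than in the other replicates, by 0.94 and 0.76 on the log2 scale (edgeR adjusted p = 0.00732 and 0.0242), the opposite direction to IRF1. Of the 24 tested targets 4 were called higher there and 6 lower, against 11.6% and 12% of all tested genes. The list was drawn up with earlier results of these data known and holds the gene of the study's title, so its direction is not independent evidence.

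Among targets of IRF1 and of type II interferon, genes passed in both directions with TIM-1, and most were lower in replicate 1. Of 20 listed genes 11 were tested, and with the block 2 rose and 1 fell, against 3.22% and 1.79% of all tested genes, with a median log2 fold change of 0.17. DESeq2 with the block called none of the 3 (adjusted p = 0.139 for PSMB8, 0.0611 for B2M and 0.101 for WARS1). Without the block 0 passed, 1 was higher and 0 lower at an unadjusted p under 0.05, against 3.95% and 1.54% of all tested genes, and unpaired DESeq2 called 0. PSMB8, an immunoproteasome subunit gene, rose by 0.90 and lost its call without the replicate 3 pair (edgeR adjusted p = 0.098). B2M, the light chain of MHC class I, rose by 0.24 and lost its call without each pair in turn (edgeR adjusted p = 0.0512 to 0.145). WARS1, the tryptophanyl-tRNA synthetase gene that type II interferon induces, fell by 0.25 on the log2 scale and lost its call without the replicate 2 pair (edgeR adjusted p = 0.339) and without the replicate 3 pair (edgeR adjusted p = 0.129).

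In replicate 1 against replicates 2 and 3, 7 of these 11 targets were called lower and 0 higher, against 12% and 11.6% of all tested genes. The median difference was -0.41, and that of all tested genes was -0.01. The 7, named after their values were seen, were GBP2, GBP3, TAP1, TAP2, PSMB9, WARS1 and B2M, with differences from -0.27 for TAP2 to -2.15 for GBP3. GBP2 and GBP3 encode interferon-induced GTPases and had 2 to 55 counts per library. TAP1, the peptide transporter subunit gene, had 399, 744 and 922 counts in TIM-1 libraries, against 485, 960 and 963 in empty-vector libraries. Of the 24 tested ISGF3 targets 6 were lower in replicate 1 and 4 higher.

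**Figure D5:**
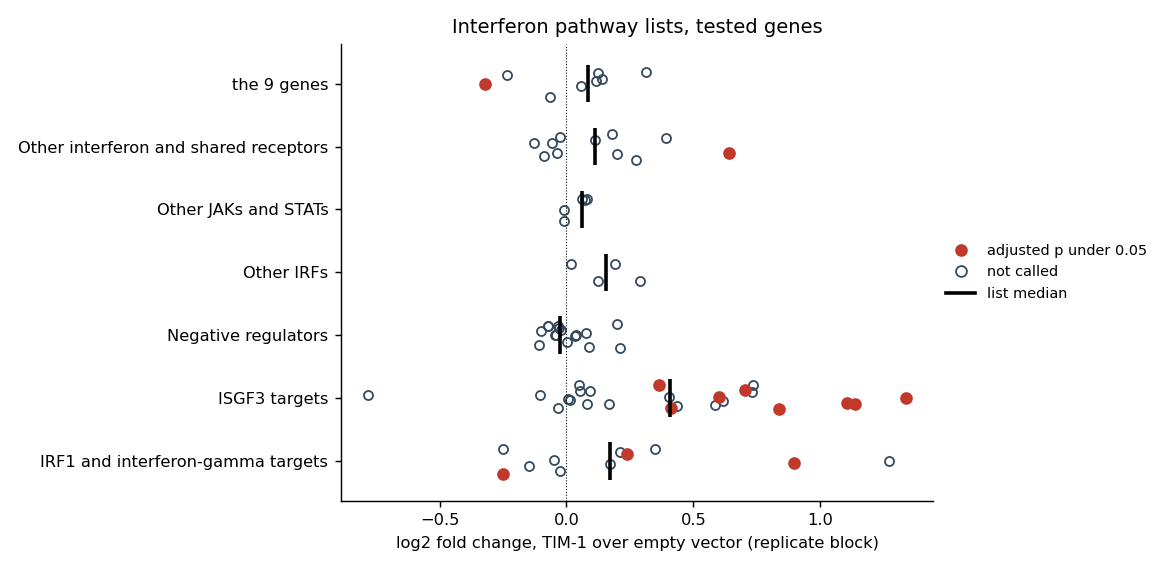
Log2 fold change with the replicate block, TIM-1 over empty vector (horizontal axis), of the tested genes of each list, with filled red points for genes past the adjusted threshold, open points for the others and black bars for list medians. The 8 called ISGF3 targets all lie above 0, IFNAR1 is the called gene among the 9 described here, and the JAK and STAT, IRF and negative regulator lists hold no called gene.

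The genes whose pattern over the 6 libraries was closest to each member were found among 8979 protein-coding genes with a mean of at least 10 CPM. Likeness was the mean absolute distance between log2 CPM values centred on each gene's mean. The genes nearest IFNAR1 were KAT5 and MARS1, at 0.0325 and 0.0326. Nearest to IRF1 were the immediate early genes FOS and ATF3, at 0.141 and 0.163, which were lower in replicate 1 by 1.82 and 2.02 on the log2 scale. RPL6 was nearest to IFNGR2 at 0.0126, TRAPPC1 to TYK2 at 0.0148, NBAS to JAK1 at 0.0182 and SMS to IFNGR1 at 0.0213. SEC61G was nearest to STAT2 at 0.0295 and SH3RF3 to IRF9 at 0.0394. The pattern of IRF9 rests on 12 to 22 counts per library, so its nearest gene depends in part on counting error.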

How the data were processed

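The authors deposited raw counts, the number of reads per Ensembl gene with 1 column for each library. The submitters' processing notes name HISAT2 2.0.5, featureCounts 1.5.0-p3, DESeq2 1.16.1 and the build hg38. No source used here gives the annotation, the use of strand or the handling of multi-mapping and overlapping reads, which can change the counts of genes with shared exons. Symbols, positions, exon lengths and overlaps came from GENCODE 29 (GRCh38), and 60463 of 60605 identifiers had a symbol.

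Groups came from the treatment labels and replicate numbers from the titles. Genes kept by filterByExpr (minimum count 10) were tested with edgeR 4.0.16 (quasi-likelihood, TMM, robust fit, R 4.3.3), with Benjamini-Hochberg adjustment over 14479 genes and a threshold of 0.05. SE was derived from the F statistic, and CPM uses TMM-scaled library sizes. Fits with the replicate number as a block, DESeq2 1.42.0, other filters and the omission of each library were set beside it. Deviations from group means correlated at 0.53, 0.23 and 0.26 between same-numbered libraries, all above the limit of 0.1 for taking numbers as pairs. TIM-1 replicate 3 and empty-vector replicate 2 also reached 0.26, so replicates 2 and 3 are not clearly told apart. Chi-square per degree of freedom between replicates ran from 4.20 to 27.9, so no library was taken for a copy. Count ratios used a pseudocount of 0.5.

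Besides the 9 members, the text names up to 3 called genes of each list by smallest p. Where a list has no call, the 2 most abundant are named, and genes outside this rule are marked. The members and lists were chosen with earlier results of these data known. All 148 list entries were matched, 147 by symbol and 1 by an older symbol.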

Additional observations from a re-analysis of the deposited data

How the results depend on the processing

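Depth limits IFNAR2 and the interferon genes, with 0 to 9 counts per library, and IRF9, with 12 to 22, and the exons that IFNAR2 and IRF9 share with other genes limit what their counts show. The exact interval of the pooled IFNAR2 ratio and the limits of detection cover counting error only. The intervals of the edgeR fits also include the spread among libraries. The number of genes called was 2 unpaired with TMM, with DESeq2 size factors and with a mean of at least 1 CPM. It was 72 with no filter on low counts, 25 with the DESeq2 Wald test, 725 with the replicate block, 209 with the block and DESeq2, and between 1 and 9 when each library was left out. Leaving out each pair with the block gave 838, 209 and 473 genes without pairs 1, 2 and 3, with 52.5%, 72.7% and 71.7% of calls higher, against 64.3% over all pairs. After the data were seen, a block of replicate 1 against the others (510 genes) and a GC correction with the block (1534 genes) were added. The GC correction moved the share of higher calls to 35.9%, shifted the median of all genes by -0.037 on the log2 scale and left IFNAR1 at -0.36 (edgeR adjusted p = 3.4e-05).

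Of the members, 1 (IFNAR1) was called with the replicate block, with DESeq2 and the block, with the replicate 1 block and with the GC correction, and 0 to 1 without each pair. Its log2 fold change ran from -0.43 to -0.24 over the 17 alternatives. It was smallest without TIM-1 replicate 1 and largest without empty-vector replicate 1, both unpaired fits that leave replicate 1 in 1 group only. Of the list genes, 12 were called with the replicate block, 12 with the replicate 1 block, 13 with the GC correction, 4 with DESeq2 and the block, 4 with no filter, 1 with the DESeq2 Wald test, 0 without each library and 10, 4 and 6 without pairs 1, 2 and 3. IRF1 ran from -0.70 to 0.11 (0.09 without TIM-1 replicate 1 and 0.11 without empty-vector replicate 3), with 3 sign changes, all with a library or pair left out, and was 0.043 with the block without the replicate 3 pair. TYK2 ran from -0.18 to 0.010, its highest value with the block without the replicate 2 pair. The other 5 tested members kept their sign under all 17. Without each library in turn, the difference in the log2 ratio of IRF9 to STAT2 ran from -0.060 to 0.51, and that of IFNAR1 to IFNAR2 from 0.32 (without TIM-1 replicate 2) to 1.32 (without TIM-1 replicate 1), against 0.82 over all libraries. The differences for IFNGR1 to IFNGR2 ran from 0.023 to 0.14, and for JAK1 to TYK2 from 0.10 to 0.29. With the same number of libraries in each group, pairing cannot change a mean difference, so the paired values are the same by arithmetic. The cause of these differences was not tested.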
